A study of Mus musculus with 4 samples.

Results

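The comparison described here is between Flk1+ and Flk1- cells that were sorted from differentiating Snai1 knockout mouse embryonic stem cells. For each gene, the log2 value on the knockout Flk1- array was subtracted from that on the knockout Flk1+ array. Each gene was represented by whichever of its probe sets had the highest mean value across the study's 4 arrays, and genes were kept if they exceeded a floor of 3.19, the 40th percentile of all gene values, on at least 1 of the arrays compared. This left 10688 of 17097 genes (62.5%), of which 9853 exceeded the floor on both arrays, 449 on the Flk1+ array alone and 386 on the Flk1- array alone. Values above the floor are called readable here, which is a percentile cut and not a detection call. A fold against a value under it is stated as "at least", computed against the floor for the probe set used. Other probe sets of the gene can give less.

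The study crossed genotype with the Flk1 sort, and each of the 4 combinations was hybridised to 1 Affymetrix array. Control cells carry the label F/F and the others the label Snai1 knockout. Both lines were aggregated in hanging drops into embryoid bodies, grown on in suspension in medium for spontaneous differentiation, dissociated, and separated with an anti-Flk1 antibody. From each fraction, 50 ng of total RNA was amplified and biotinylated. The knockout Flk1- sample has a description that says day 4 and a source name that says day 5, whereas both labels of the other 3 samples say day 4, so sort fraction and day cannot be told apart in the knockout. The sources used here do not say how the knockout was made or whether the line is 1 clone. Snai1 itself was at 1.88 in Flk1+ and 1.94 in Flk1- knockout cells, under the floor on both arrays, so its probe set does not check the genotype.

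Flk1, encoded by Kdr, is the main receptor for vascular endothelial growth factor. In embryoid bodies, as in the embryo, cells that switch it on leave the epiblast through a mesodermal state, and the ETS factor Etv2 together with the Tal1 and Lmo2 partners then directs them to blood and endothelium. Snai1 is a zinc finger repressor of epithelial genes, best known for its part in the transition from epithelium to mesenchyme that mesoderm cells undergo.

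Between these fractions 173 genes were at least 2-fold higher in Flk1+ cells (1.62% of the genes described) and 232 were at least 2-fold lower (2.17%). Of the higher genes 28 differed 4-fold or more and 14 differed 8-fold or more, whereas of the lower genes 29 differed 4-fold or more and 3 differed 8-fold or more. With values under the floor set to it, 152 genes were 2-fold higher, 22 of them 4-fold and 7 of them 8-fold, and 204 were 2-fold lower, 21 of them 4-fold and 1 of them 8-fold. Genes of endothelium, of lateral mesoderm and of the extracellular matrix were at the extreme on the higher side, and genes restricted to pluripotent cells on the lower side. The median difference over all genes was -0.08, the quartiles were -0.33 and 0.15, and 52.5% of genes were within 1.2-fold of each other on the arrays. Centring each array on its median over the genes readable on all 4 arrays moved the median to 0.11 and the split to 237 higher and 137 lower genes. Repeated quantile normalization gave 194 higher and 187 lower genes, and cyclic loess gave 194 and 191. Which side held more genes thus depended on the normalization.

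With 1 array on each side there was no replicate, so no test was run and differences are sizes without an error; the number of arrays limits the precision. The only spread available was between probe sets of one gene: over 3979 genes with several readable probe sets its SD was 0.29, and in 4.0% of them (159 genes) the probe sets differed by 2-fold or more in their sort difference. Control probe sets for Gapdh read higher at the 3' than at the 5' end by 1.47 in Flk1+ and by 1.99 in Flk1- knockout cells. In control cells the order was the opposite, 2.05 in Flk1+ and 1.76 in Flk1-. For Actb the same value was -0.32 and -0.03 in the knockout and -0.06 and -0.14 in the control. Such values are a sign of RNA quality or amplification that differed between the knockout arrays, and its part in the differences was not tested. On the 4 arrays 10195 to 10302 genes exceeded the floor. In bulk RNA such as this, fewer cells of a type and less RNA per cell cannot be told apart.

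**Figure D1:**
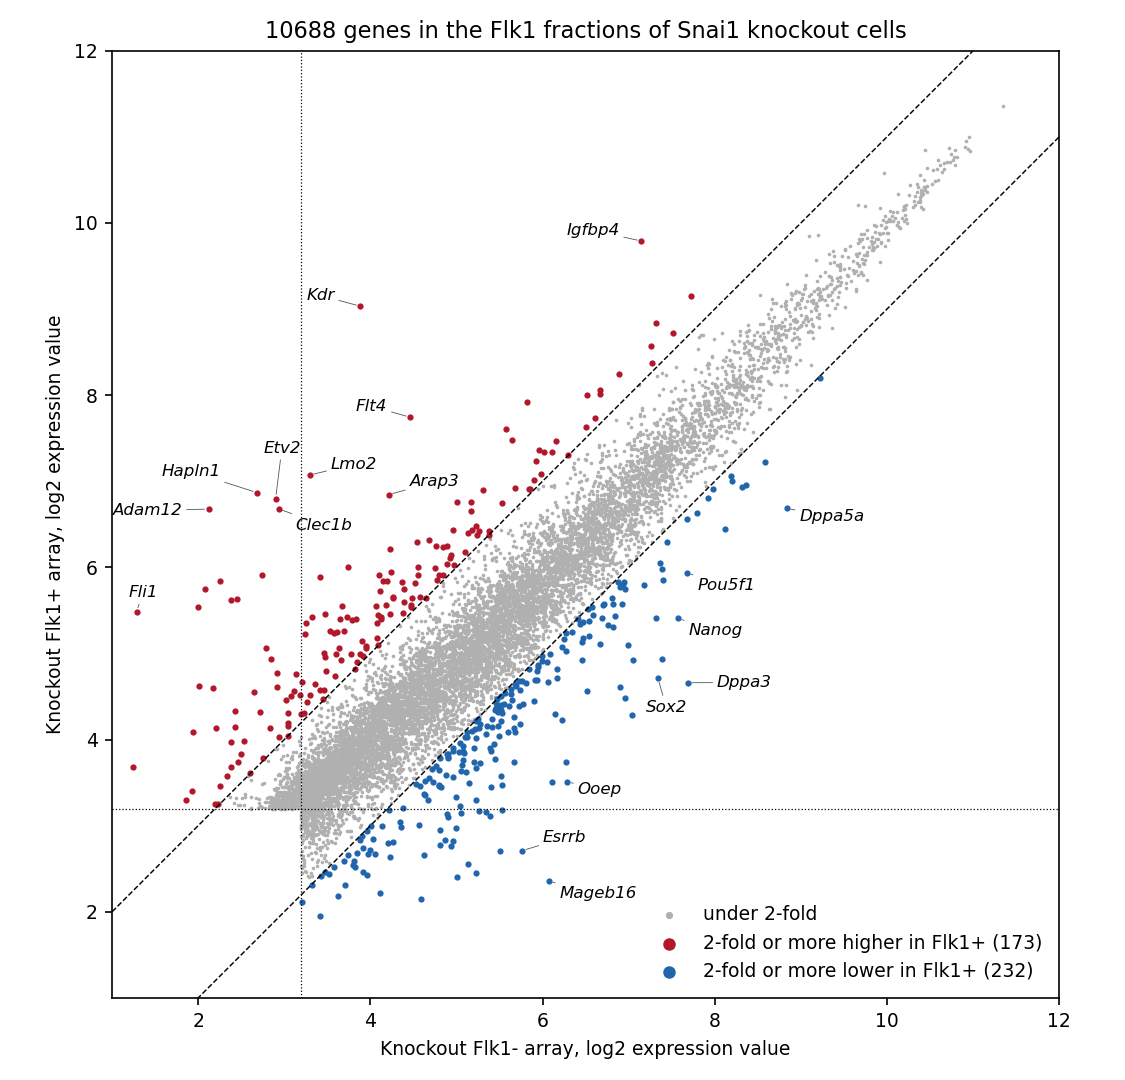
Log2 expression value of each of the 10688 genes on the knockout Flk1- array (horizontal) against the knockout Flk1+ array (vertical). Dashed lines mark 2-fold differences and dotted lines the floor of 3.19; Kdr, Hapln1 and Adam12 lie far above the diagonal band, and Mageb16, Esrrb and Ooep far below it.

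The sort was plain in its own target and in the other markers of Flk1+ cells. Kdr was at 9.03 in Flk1+ and 3.88 in Flk1- cells, a difference of 5.15. Etv2, the pioneer ETS factor of blood and endothelium, was at 6.80 and 2.90, the second value under the floor, so that it was at least 12.2-fold higher. Lmo2, the bridging partner of Tal1, was at 7.07 and 3.30, a difference of 3.78. Kdr stayed readable in the Flk1- fraction, and Lmo2 just so. The same differences in control cells were 4.38 for Kdr, 2.10 for Lmo2, whose control Flk1- value was 5.26, and Etv2 was at least 11.7-fold higher.

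Transcription factors of the hemato-endothelial program were mostly higher in Flk1+ cells. Of 23 readable factors 12 were at least 2-fold higher and 0 lower, with a median difference of 1.15 (0.86 with values under the floor set to it) against -0.08 for all genes. The ETS factor Fli1 was at 5.49 in Flk1+ and 1.28 in Flk1- cells (at least 4.90-fold). Its relative Erg was at 5.91 and 2.75 (at least 6.57-fold), with a second probe set at a difference of 1.46. Ets1 was at 5.36 and 3.25, a difference of 2.10, although its 4 probe sets ranged from 0.79 to 2.14. Sox18, a SoxF factor of vascular and lymphatic endothelium, was at 5.84 and 2.25 and therefore at least 6.26-fold higher.

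Other factors, among them partners of Lmo2, lay on the same side. Tal1, the basic helix-loop-helix factor, was at 4.62 in Flk1+ cells and at 2.02, under the floor, in Flk1- cells. Gata2 was at 5.00 and 3.46, Elk3 at 6.24 and 4.84, and Hey2, a repressor that answers to Notch, at 5.35 and 4.08. Factors of later or broader use did not follow. Runx1, required for definitive blood, was at 3.82 and 3.85, the hypoxia factor Epas1 at 5.39 and 6.14, and Sox17 and Hhex, which endoderm shares, had differences of -0.52 and -0.29.

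Genes of the endothelial surface and of endothelial signalling gave the highest list median after the 3 sort markers, 1.21, or 0.86 with values under the floor set to it. Of 27 readable members, Kdr included, 15 were at least 2-fold higher and 0 lower. Flt4, the VEGF-C receptor, was at 7.74 in Flk1+ and 4.46 in Flk1- cells, a difference of 3.28. Cdh5, the adhesion molecule of endothelial junctions, was at 5.42 and 3.32 (2.10, with a second probe set at 0.91). Ecscr, an endothelial surface protein, was at 5.22 and 3.23 (1.99). These 3 genes were readable in both fractions.

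Other members of that list were also higher. Arap3, a GTPase activating protein for small G proteins, was at 6.84 and 4.21, but its probe sets gave 0.68 and 2.63 and it had 0.68 when probe sets ending in _s_at or _x_at were left out. Ctla2a, an inhibitor of cysteine proteases, was at 5.89 and 3.41 (2.48, with a second probe set at 1.19), and the semaphorin receptor Plxnd1 at 6.21 and 4.23 (1.99). Calcrl, the receptor of adrenomedullin, was at 4.60 against 2.17, and Emcn, the endothelial sialomucin, at 3.97 against 2.39, the Flk1- value of each lying under the floor.

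Several receptors often used to mark endothelium differed by less than 2-fold. Flt1, the decoy receptor for VEGF, was at 6.66 in Flk1+ and 6.28 in Flk1- cells, and Ramp2, the partner of Calcrl, was at 10.84 and 10.97. Eng was at 3.62 and 3.55. Pecam1, which stem cells also carry, was the list's lowest member at 3.71 in Flk1+ and 4.36 in Flk1- cells. The differences of Nrp1, Nrp2 and Aplnr were 0.77, 0.94 and 0.86, under 2-fold.

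Outside the lists, 3 genes near the top of the comparison had Flk1- values under the floor. Clec1b, a C-type lectin receptor for podoplanin, was at 6.68 in Flk1+ and 2.94 in Flk1- cells (at least 11.2-fold). Rapgef3, the cAMP-activated exchange factor for Rap1, was at 5.74 and 2.08 (at least 5.87-fold). Alternatives for the difference of Rapgef3 ran from 1.29 to 3.83. Shank3, a scaffold known from synapses, was at 5.62 and 2.38 (at least 5.37-fold). In control cells, too, these 3 genes exceeded the floor in the Flk1+ fraction alone.

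**Figure D2:**
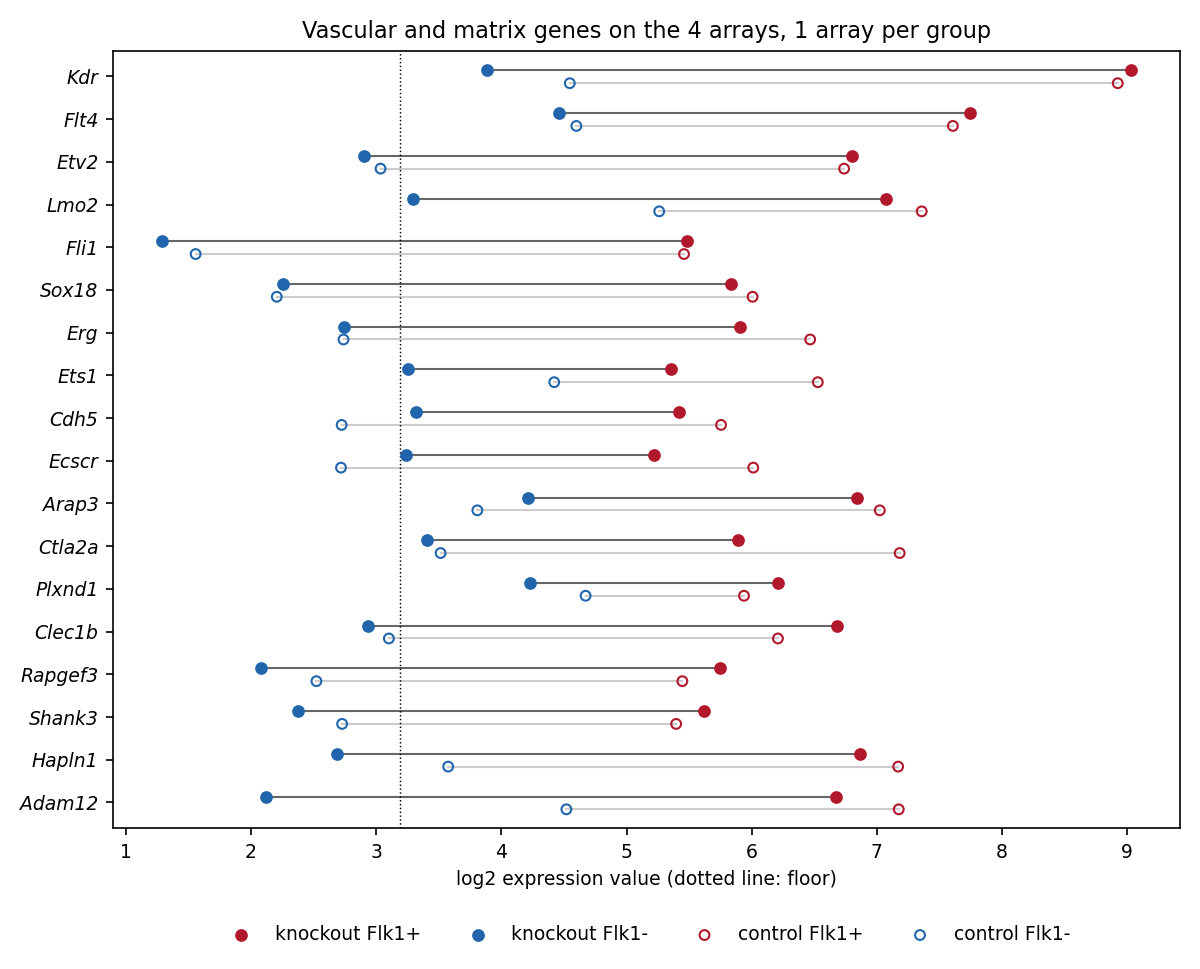
Log2 values of 18 vascular and matrix genes on the knockout arrays (filled points) and the control arrays (open points), red for Flk1+ and blue for Flk1-, with a dotted line at the floor of 3.19. In every gene drawn the red point lies to the right of the blue one in both genotypes, by 5.15 for Kdr and 1.99 for Ecscr in the knockout.

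Most genes of red and other blood cells were under the floor in both knockout fractions. Of 17 members named here 7 were readable in the comparison, with a median difference of -0.03 (which turns positive when arrays are centred) and none at 2-fold. The embryonic globin Hba-x was at 1.97 and 2.01, Hbb-bh1 at 2.63 and 2.98, and Hbb-y at 1.73 and 1.63, in Flk1+ and Flk1- cells, although another probe set of Hbb-y was readable. The adult-type genes Hba-a1 and Hbb-b2, whose probe sets may also read their near-identical copies, were at 3.79 and 3.88 and at 4.70 and 4.45. Gata1, the erythroid factor, was at 3.43 and 3.64. The summed level of the blood list, the log2 of its members' linear values added up, was 7.10 in Flk1+ and 7.11 in Flk1- cells, against 7.95 and 11.54 in the control fractions.

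Lateral plate and cardiac transcription factors were mostly higher in Flk1+ cells. Of 20 readable factors 19 were higher by sign (41.4% of all genes described were higher and 58.6% lower) and 9 by at least 2-fold, with a median of 0.77. Hopx, the small homeodomain protein of heart precursors, was at 5.63 in Flk1+ and 2.45 in Flk1- cells (at least 5.43-fold), with its probe sets at 1.11 and 3.19. The forkhead gene Foxc1, needed for vessels and somites, was at 7.61 and 5.58, a difference of 2.03.

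Homeobox and basic helix-loop-helix genes of the same mesoderm followed. The paired-related gene Prrx2 was at 5.46 and 3.47 (1.99), Meis2 at 5.91 and 4.10 (1.81), and Hand1, of extraembryonic mesoderm and heart, at 6.76 and 5.00 (1.76). Msx1, a target of BMP signals, was at 5.64 and 4.26 (1.38, with a second probe set at 0.50). By contrast Isl1, of the second heart field, was at 7.33 in both fractions, and Tbx20 and Gata6 differed by 0.34 and 0.22.

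Contractile genes were shifted less. The sarcomere and smooth muscle list had a median of 0.26 over 16 members, 11 of them higher by sign and 1, the myosin heavy chain Myh7, by 2-fold (6.03 against 4.98). The troponins Tnni1, Tnnt2 and Tnnc1 had differences of 0.92, 0.75 and 0.72. In the control the median of the same 16 members was -0.26.

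Early mesoderm itself was divided. Of 16 primitive streak genes 9 were higher and 7 lower by sign, around a median of 0.14, and the 1 gene at 2-fold was Snai2, the relative of Snai1, at 5.43 in Flk1+ and 4.12 in Flk1- cells. Eomes was at 6.39 in both, Mixl1 at 4.55 and 4.14, and Mesp1 at 4.79 and 4.06. Of 8 paraxial genes, with a median of 0.31 (0.16 with values under the floor set to it), Pax3 was at 5.00 and 3.87 (1.12), whereas Tcf15 was at 3.48 and 4.45.

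Mesenchymal genes leaned to the Flk1+ fraction of cells labelled as lacking Snai1. Of 22 readable members 21 were higher by sign and 9 by 2-fold, with a median of 0.86. Of the known drivers of the epithelial-mesenchymal transition, the repressor Zeb1 was at 5.55 in Flk1+ and 4.06 in Flk1- cells. Zeb2 at 4.88 and 4.03 and Twist1 at 6.07 and 5.19 were under 2-fold. Vim, the intermediate filament protein of mesenchyme, was at 9.15 and 7.73, and Pdgfrb at 5.56 and 4.18. Cdh11, a mesenchymal cadherin, was at 5.07 against 2.79 (at least 3.67-fold), with a second probe set at a difference of 1.48. The neural and mesodermal cadherin Cdh2 was at 7.003 and 6.77.

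Matrix genes were among the furthest apart. Hapln1, which links hyaluronan to proteoglycans, was at 6.87 in Flk1+ and 2.68 in Flk1- cells (at least 12.8-fold), and its 2 probe sets had differences of 4.06 and 4.18. Adam12, a membrane metalloprotease, was at 6.68 and 2.12 (at least 11.2-fold). Fbn2, the fibrillin of embryonic microfibrils, was at 7.92 and 5.82 (2.10). The matrix list had 7 of 19 members at 2-fold higher, 0 lower, and a median of 0.68. It included the basement membrane collagen genes Col4a1, at 8.004 against 6.52, and Col4a2, at 5.92 against 4.55, and Vcan, the large proteoglycan that Hapln1 binds, at 7.47 against 6.15.

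The list of feeder fibroblast markers overlaps those of mesenchyme and matrix. It had 5 of 12 members readable, and its summed level was 8.74 in Flk1+ and 7.94 in Flk1- cells. Postn and Col1a1, 2 of its defining members, were at 3.16 and 3.19 and at 3.99 and 3.17. What part such cells had in the mesenchymal differences was not tested.

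Genes restricted to pluripotent cells were at the extreme of the lower side, although most 2-fold lower genes were on none of the lists. Of 18 readable pluripotency transcription factors 10 were at least 2-fold lower in Flk1+ cells and 0 higher, with a median difference of -1.37. Of 24 other stem cell-restricted genes 17 were at least 2-fold lower and 0 higher, with a median of -1.93. Pou5f1, the octamer-binding factor Oct4, was at 5.94 in Flk1+ and 7.67 in Flk1- cells, Sox2, its partner, at 4.71 and 7.34, and Nanog at 5.41 and 7.57. All 3 were still readable in the Flk1+ fraction. Of the 24 stem cell-restricted genes 18 exceeded the floor in Flk1+ and 24 in Flk1- cells, and their summed level was 9.78 and 11.23.

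Some factors of the naive network were lower in Flk1+ cells and others were not. Esrrb was at 2.71 in Flk1+ and 5.76 in Flk1- cells (at least 5.94-fold), but a second readable probe set gave 0.04. Zfp42, also called Rex1, was at 2.15 and 4.59 (at least 2.63-fold), Nr0b1 at 3.13, under the floor, and 4.89, and the zinc finger gene Rex2 at 4.49 and 6.96. Klf2, Klf4 and Klf5 differed by -0.40, -0.32 and 0.11, and Tbx3 by 0.01, so Kruppel-like factors of the same network were not among the 2-fold genes.

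Among genes readable in both fractions the largest lower difference was that of Dppa3, a maternal and germ line factor that protects DNA methylation, at 4.66 in Flk1+ and 7.68 in Flk1- cells (-3.02). Mageb16, an X-linked melanoma antigen family gene, was at 2.35, under the floor, and 6.07 (at least 7.37-fold). Ooep, of the oocyte's subcortical complex, was at 3.51 and 6.28 (-2.77), and Fbxo15, a classic Oct4 target, at 2.71 and 5.51 (at least 4.98-fold). Dppa2, Dppa4 and Dppa5a had differences of -2.53, -1.9996 and -2.15, and the RNA-binding protein gene L1td1 one of -2.46. For Dppa2 the value was -0.71 without probe sets ending in _s_at or _x_at. Lin28a stood outside the pattern at 8.49 and 8.34.

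The promoters of 4 lower genes are shown because each holds ATGCAAA, the octamer part that Oct4 recognises, in the 250 bases before its gene's most upstream start. The sequences are those of RefSeq on GRCm38.p6, written 5′ to 3′ on the gene's strand, with the octamer part or its reverse complement TTTGCAT in capitals. In Nanog the capitals also mark ACAATG, the reverse complement of the SOX motif CATTGT, and 1 base lies between them.
Nanog: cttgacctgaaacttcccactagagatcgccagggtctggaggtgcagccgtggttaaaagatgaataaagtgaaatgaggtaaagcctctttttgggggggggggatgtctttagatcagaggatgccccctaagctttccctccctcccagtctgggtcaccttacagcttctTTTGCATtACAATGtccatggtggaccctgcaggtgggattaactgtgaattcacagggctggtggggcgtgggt
Sox2: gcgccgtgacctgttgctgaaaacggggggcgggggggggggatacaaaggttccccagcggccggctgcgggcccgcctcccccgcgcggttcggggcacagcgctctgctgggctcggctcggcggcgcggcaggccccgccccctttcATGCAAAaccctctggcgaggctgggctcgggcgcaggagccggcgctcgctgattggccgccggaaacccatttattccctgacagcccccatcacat
Zfp42: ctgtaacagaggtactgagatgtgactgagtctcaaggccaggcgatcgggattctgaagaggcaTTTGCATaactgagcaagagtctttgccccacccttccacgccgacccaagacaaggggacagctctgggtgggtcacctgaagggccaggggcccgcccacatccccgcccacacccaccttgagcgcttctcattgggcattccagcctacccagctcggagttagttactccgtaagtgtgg
Mageb16: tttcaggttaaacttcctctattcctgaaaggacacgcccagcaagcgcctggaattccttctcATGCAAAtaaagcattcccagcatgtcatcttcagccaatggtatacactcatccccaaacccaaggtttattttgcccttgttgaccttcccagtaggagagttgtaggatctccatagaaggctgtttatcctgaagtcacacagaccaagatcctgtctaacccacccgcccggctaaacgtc
The window of Nanog is chr6:122707239-122707488 on the + strand, that of Sox2 chr3:34649745-34649994 on the + strand, that of Zfp42 chr8:43307010-43307259 on the - strand and that of Mageb16 chrX:79671436-79671685 on the - strand. Counted back from the start, the octamer part begins at -75 in Nanog, -99 in Sox2, -185 in Zfp42 and -186 in Mageb16.

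A window could be matched for 122 of the 173 higher and 185 of the 232 lower genes. The octamer part, searched on both strands, was in 13 of the windows of lower genes (7.03%), 1 of those of higher genes (0.82%), 2.78% of those of all genes described and 4.07% of all 27025 promoters of the table. The lower genes with it were, besides the 4 shown and 1 gene model without a proper name, Atf7ip, Gadd45a, Kansl1l, Lgr4, Mir17hg, Pim2, Pipox and Rpgr, and the higher gene was Hapln1; they were named after their values were seen. The Snail E-box CAGGTG was in 22.2% of lower, 10.7% of higher and 15.4% of all described genes' windows. The ETS core GGAAG was in 69.7% of higher and 68.1% of all described genes' windows, and the GATA motif AGATAA in 7.38% and 5.67%. CATTGT was in 5.74% of higher, 6.49% of lower and 6.02% of all described genes' windows. CCGGAAG, the ETS core with its usual flank, contains GGAAG and was in 4.1% of higher, 10.3% of lower and 13.8% of all described genes' windows. A match describes letters in a window and was not tested as a binding site.

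**Figure D3:**
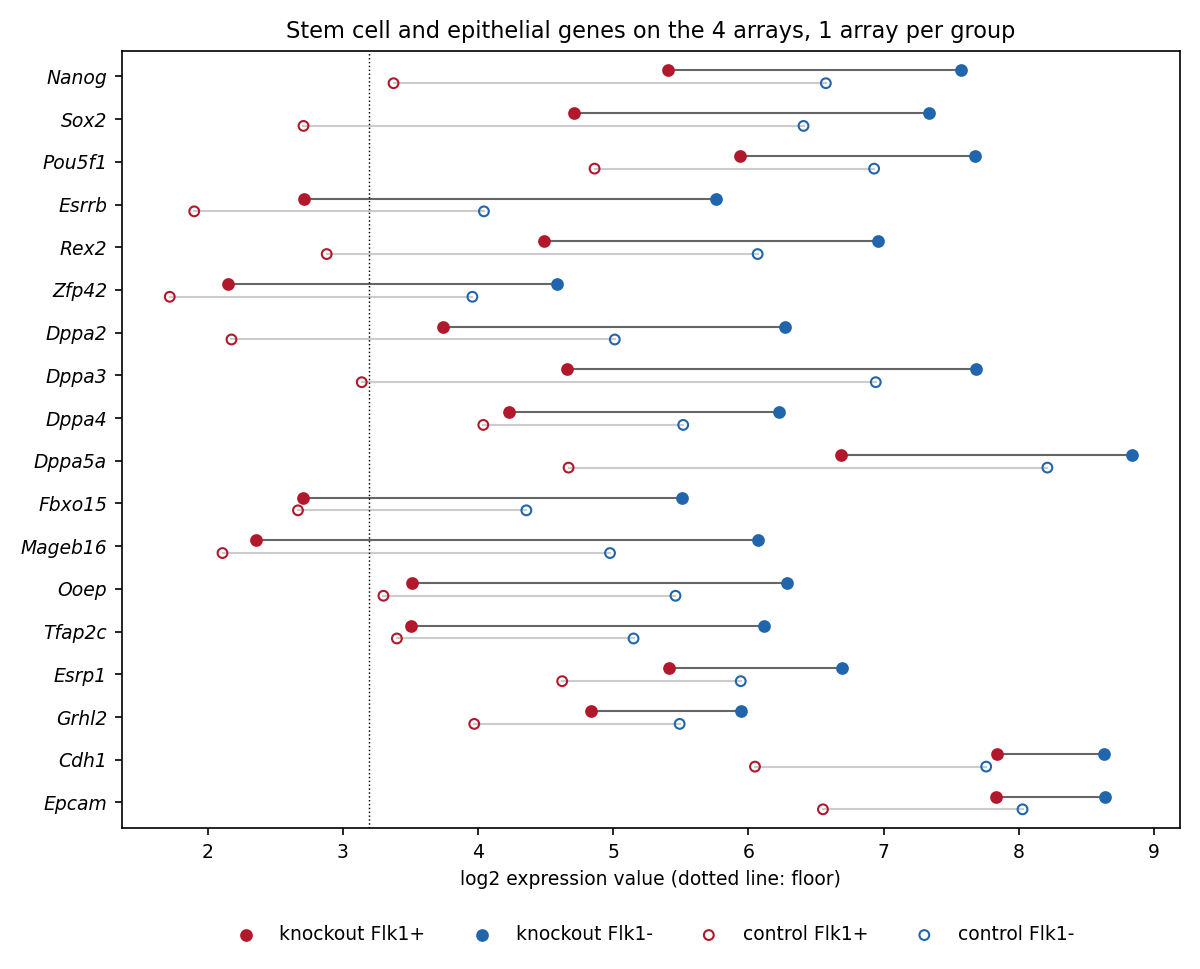
Log2 values of 18 stem cell and epithelial genes on the knockout arrays (filled points) and the control arrays (open points), red for Flk1+ and blue for Flk1-, with a dotted line at the floor of 3.19. The blue point lies to the right of the red one in every gene drawn in both genotypes; for Cdh1 the knockout values are 7.84 and 8.63, and for Nanog 5.41 and 7.57.

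Genes of the primed epiblast, the later pluripotent state, differed less than those of stem cells. Lower by sign were 13 of 14 genes and lower by 2-fold 2 of them, around a median of -0.29. Pou3f1 was at 4.67 in Flk1+ and 6.06 in Flk1- cells, though a second probe set gave 0.04, and Etv5, a target of FGF signals, was at 6.29 and 7.45. Fgf5 was at 8.78 and 9.37, Otx2 at 8.12 and 8.83, and the de novo methyltransferase Dnmt3b at 9.21 and 9.64. Its cofactor Dnmt3l, at 3.63 and 5.05, was the 1 member of 8 in the DNA methylation list at 2-fold.

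Germ cell genes had a median of -0.75 over 8 members, with Dppa3, Tfap2c and Sycp3 at 2-fold lower. Sycp3, at 2.31 and 3.32, had its Flk1+ value under the floor (at least 1.09-fold), and the list's median was -0.51 with such values set to the floor and -0.45 with no floor. Tfap2c, an AP-2 factor of germ cells and trophoblast, was at 3.50 in Flk1+ and 6.11 in Flk1- cells, and both of its probe sets were lower, by -2.61 and -1.80. Prdm1 and Dazl were at 5.95 and 5.67 and at 3.51 and 3.26, with differences of the opposite sign.

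Epithelial genes leaned to the Flk1- fraction by small amounts. Of 38 readable members 35 were lower in Flk1+ cells by sign but 5 by 2-fold, with a median of -0.39. These 5 were the splicing factor gene Esrp1 (5.41 against 6.69), the junction protein gene Tjp3 (3.86 against 5.07), the epithelial transcription factor gene Grhl2 (4.84 against 5.95), Perp (4.34 against 5.45) and Dsc2, a desmosomal cadherin whose Flk1+ value of 3.19 lay just under the floor. Grhl2 was under 2-fold in 4 of 6 alternatives for its value, which ran from -1.11 to -0.48. Perp was under 2-fold, at -0.94, when arrays were centred. Cdh1, the epithelial cadherin that Snai1 represses, was at 7.84 in Flk1+ and 8.63 in Flk1- cells, and Epcam was at 7.84 and 8.64. The claudins Cldn6 and Cldn7 were at 9.10 and 9.21 and at 5.85 and 6.12, and the keratins Krt8 and Krt18 differed by -0.13 and -0.11. In Flk1+ cells 35 of the 38 members exceeded the floor and in Flk1- cells 38, and the list's summed level was 11.71 in Flk1+ and 12.07 in Flk1- cells.

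Signalling pathways were shifted in single members more than as a whole. In the BMP list 4 of 23 members were 2-fold higher and 0 lower, with a median of 0.32. The ligands Bmp4 and Bmp5 were at 7.02 and 5.90 and at 7.23 and 5.93, the antagonist Grem1 at 3.61 against 2.60 (at least 1.33-fold), and the targets Id1, Id2 and Id3 differed by 0.54, 0.04 and 0.32. In the Nodal list, with a median of -0.20, the 1 member at 2-fold was the ligand Gdf3, which stem cells express. Gdf3 was at 2.66 against 4.62 (at least 2.69-fold), and a second probe set had a difference of -0.54. Nodal itself was at 5.48 and 6.12.

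FGF and ERK feedback genes went both ways, with Spry4 (1.17) and Dusp4 (1.004) 2-fold higher and Etv5 (-1.15) lower among 17. Their median of -0.02 turned positive under each of 3 renormalizations and with the mean of probe sets. None of 27 Wnt members reached 2-fold. Their median was 0.13, the inhibitor Dkk1 was at 6.68 and 5.72, and the receptor Fzd5 at 7.001 and 7.71. In the Notch list Hey2 alone of 17 did, with Notch1 at 5.73 and 5.25 and Dll4 at 3.71 and 3.62. Vegfa, the ligand of Flk1, was at 5.98 in Flk1+ and 6.52 in Flk1- cells, and a second probe set had a difference of 0.02.

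Among guidance receptors and ligands 4 of 37 were 2-fold higher and 1 lower, with a median of 0.14. Beside Plxnd1 these were the netrin receptor Unc5c (5.43 against 3.73), the semaphorin Sema3a (6.31 against 4.68) and Sema5a (4.99 against 3.60), and the lower one was the netrin gene Ntn1 (4.09 against 5.12). Ntn1 was under 2-fold in 3 of 6 alternatives for its value, which ran from -1.04 to -0.56. Of 9 integrins Itga9 and Itga8 were higher, at 6.29 against 4.54 and 5.83 against 4.36. Itga9 had 0.83 without probe sets ending in _s_at or _x_at.

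Insulin-like growth factor and imprinted genes held some of the brightest members. Igfbp4, a secreted IGF binding protein, was at 9.79 in Flk1+ and 7.15 in Flk1- cells, and its 6 readable probe sets had differences from 0.89 to 3.50. Of 15 imprinted genes 4 were 2-fold higher and 0 lower, with a list median of 0.06. They were Phlda2 (7.47 against 5.65), Dlk1 (5.84 against 4.15), the zinc finger gene Plagl1 (8.84 against 7.31) and Cdkn1c (7.36 against 5.96), the last a brake on the cell cycle. Igf2 was at 10.58 and 9.96. Crabp1, a retinoic acid binding protein, was at 5.56 and 3.67 and was the 1 gene of 11 in the retinoic acid list at 2-fold, and among 7 readable Hox genes Hoxb2 was at 4.58 and 3.42.

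Lists of other germ layers did not lean as clearly. The endoderm list had 10 of 20 members higher and 10 lower by sign, and its median of -0.09 turned positive under each renormalization. Its 2 members at 2-fold were Sox7 (3.40 against 1.93, at least 1.16-fold), which endothelium shares, and Rhox5 (5.10 against 6.996), which stem cells share. The neuroectoderm list had a median of 0.08 over 10 members, with Hesx1, also an epiblast gene, at 3.23 and 5.05 and Pax6 at 3.57 and 3.52. The trophoblast list had a median of -0.27, which turned positive when arrays were centred, with Hand1 higher and Tfap2c lower. Summed levels in Flk1+ and Flk1- cells were 10.75 and 10.88 for endoderm, 8.85 and 8.61 for neuroectoderm and 8.45 and 8.53 for trophoblast.

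Genes of S phase were slightly but widely lower in Flk1+ cells, with 26 of 29 lower by sign, beside 58.6% of all genes described. By 2-fold 1 was lower, and the median of -0.44 was -0.27 when arrays were centred. Hells, a chromatin remodeller, was at 4.81 and 6.17, with probe sets from -1.35 to -0.37, the licensing factor Cdt1 at 7.12 and 8.11, and Pcna at 8.60 and 8.98. Genes of the G2 and M phases did not share this, with 11 of 21 higher by sign, a median of 0.02 and Mki67 at 8.73 and 8.37.

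Metabolic lists leaned lower by small amounts, beside 58.6% of all genes lower by sign and a median of -0.08 over all genes. The sterol and fatty acid list had 17 of 21 members lower and a median of -0.40, with Sqle at 6.21 and 6.96. The respiratory chain list had 30 of 34 lower, with a median of -0.17. The median was -0.24 both for glycolysis and hypoxia genes and for amino acid and ATF4 response genes, each with 1 member at 2-fold, Aldoc and the arginine transporter gene Slc7a3. Aldoc was under 2-fold in 4 of 6 alternatives for its value, which ran from -1.10 to -0.58. When arrays were centred the medians were -0.23 for sterol genes, -0.0003 for the respiratory chain, -0.06 for glycolysis and -0.07 for amino acid genes. The p53 target list had a median of -0.33 and Perp at 2-fold. Of 11 reference genes 10 were within 2-fold, Gapdh at 11.36 and 11.34, and the exception was Hprt, an X-linked purine salvage gene, at 5.98 and 7.38.

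**Figure D4:**
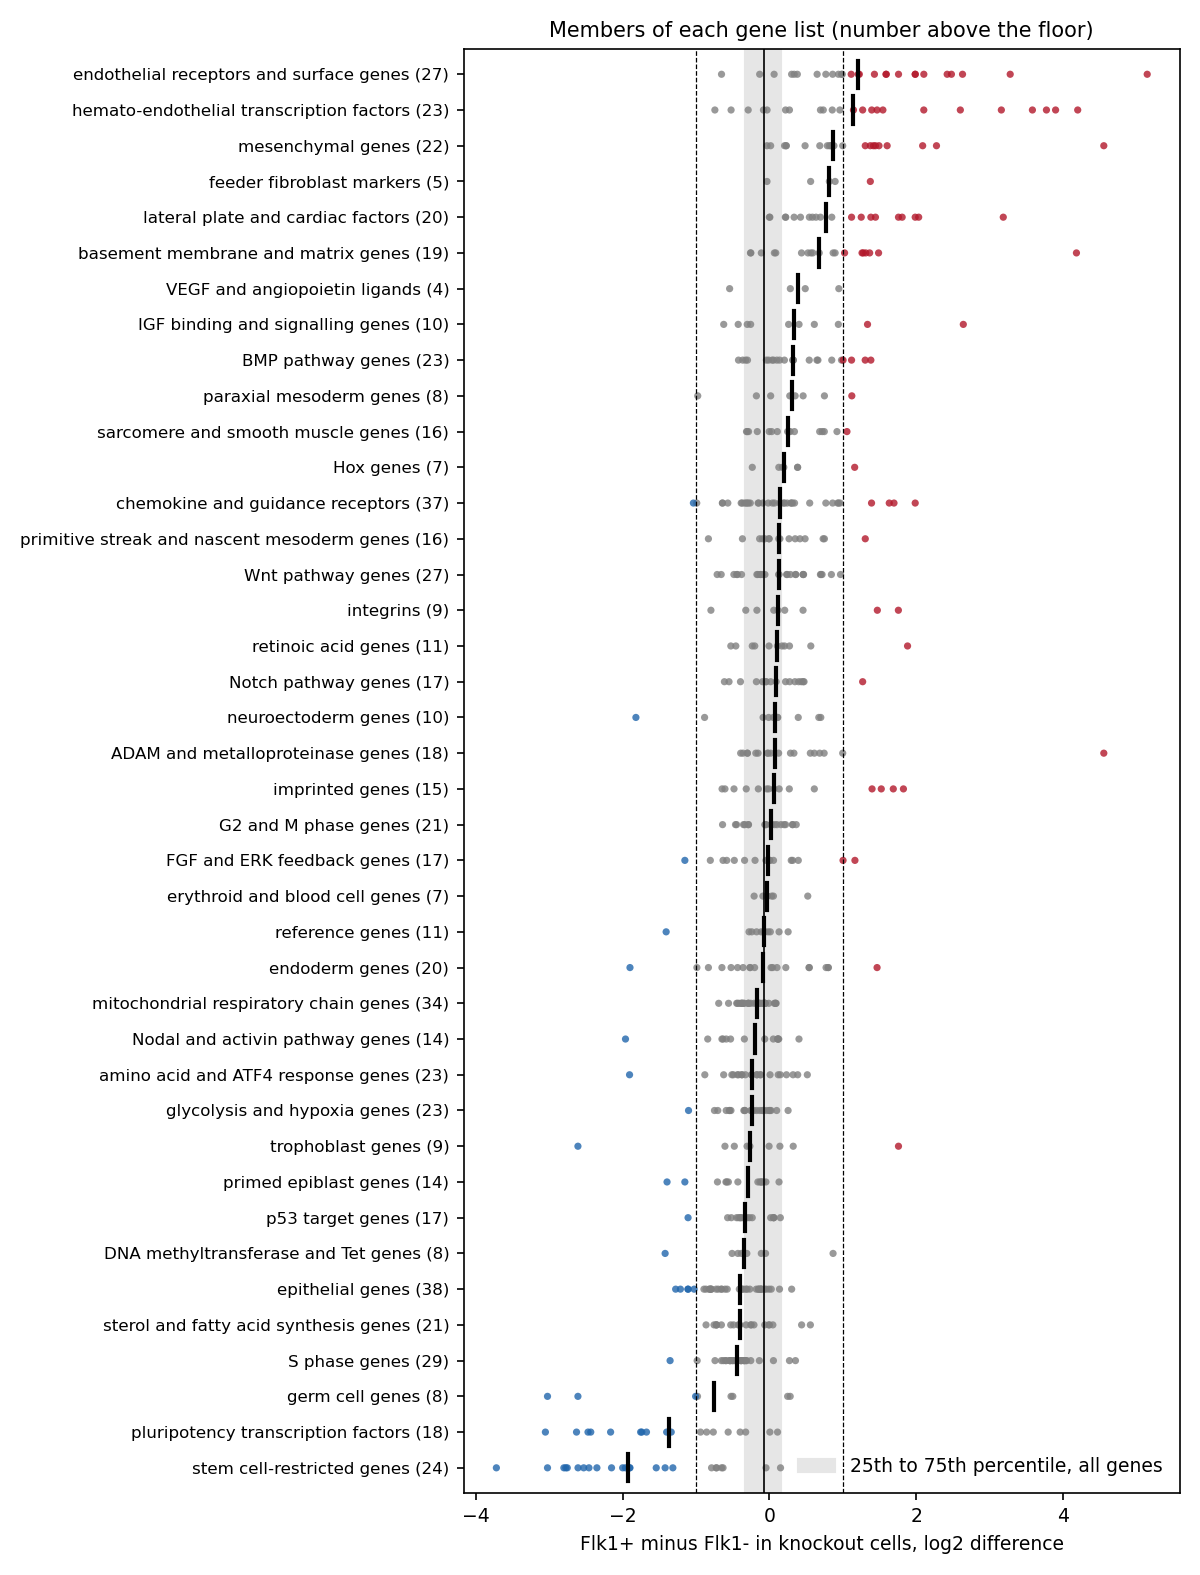
Sort difference (Flk1+ minus Flk1-, log2) in knockout cells for each readable member of 40 gene lists, with the list's median as a black bar and its number of readable members in parentheses. The grey band spans the quartiles of all 10688 genes (-0.33 to 0.15) and dashed lines mark 2-fold; list medians run from -1.93 for stem cell-restricted genes to 1.21 for endothelial receptors.

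Most 2-fold genes were on none of the lists, 103 of the higher and 184 of the lower. Higher ones included Pmp22, a membrane protein of myelin and other cell junctions, at 6.01 in Flk1+ and 3.74 in Flk1- cells. Lower ones included Mymx, a micropeptide of muscle cell fusion, at 2.45 and 5.23 (at least 4.11-fold), and Manba, a lysosomal mannosidase, at 3.17 and 5.26 (at least 4.20-fold). The long noncoding RNA Platr10 was at 3.12 and 5.39 (at least 4.58-fold). The zinc finger genes Zfp982 and Zfp979 were at least 3.85-fold and 3.64-fold lower, with probe sets that may read near-identical family members. Mreg, Gtsf1l, Gstm3 and Pdzd4 had differences of -2.13, -2.06, -1.96 and -1.94. Gstm3 had -0.60 without probe sets ending in _s_at or _x_at.

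Genes lay closely spaced on both sides of the 2-fold rule. Just inside it on the higher side were Grem1, Tpcn1, Dusp4, B3galnt1 and Bach2, from 1.0036 for Grem1 to 1.0003 for Bach2, and just outside Mmp14 at 0.999 and Itpkb, S1pr1, Zfp503 and Meis3 at 0.99. On the lower side Pgap1, Mycl, Kcnk1 and Sycp3 at -1.01 and Rp2 at -1.005 were inside, and Rif1, Ift122, Tefm, Polr1b and Apela at -0.99 outside. Grem1, B3galnt1, Itpkb, S1pr1, Pgap1 and Sycp3 had 1 value under the floor. Where a 2-fold gene had several readable probe sets, all were 2-fold in 32 of 75 higher and 12 of 66 lower genes. Some probe set had the opposite sign in 2 of the higher and 14 of the lower genes.

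The control arrays give the same sort in F/F cells, and their values enter the knockout comparison in the choice of probe sets and in the floor. There 127 of 10622 genes were at least 2-fold higher in Flk1+ cells (1.2%) and 160 lower (1.51%), around a median of -0.01. Higher in both genotypes were 77 genes, 44.5% of the knockout's and 60.6% of the control's. Lower in both were 81 genes, 34.9% of the knockout's and 50.6% of the control's, and 0 genes were 2-fold apart in opposite directions. Of the 96 genes higher in the knockout alone 92 had the same sign in the control (48.2% of all control genes were higher by sign), with a median control difference of 0.52, and of the 151 lower in the knockout alone 136 did (51.7% of all control genes were lower by sign), with a median of -0.53. Being past 2-fold in one genotype and not in the other is no test of a difference, and with 1 array per group none could be made. Control medians and control 2-fold counts of the gene lists were taken over the members readable in the knockout comparison. Members readable in the control alone are left out of them.

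Some genes had a wider sort difference in the knockout than in the control. Prrx2 had 1.99 in the knockout and 0.32 in the control, Meis2 1.81 and 0.20, and Crabp1 1.88 and 0.15. Crabp1 was at 5.56 in Flk1+ and 3.67 in Flk1- cells of the knockout and at 6.47 and 6.32 in the control, and Meis2 was at 5.91 and 4.10 in the knockout and at 6.49 and 6.30 in the control. For both of these genes the knockout Flk1- value was the lowest of the 4 arrays. Fbn2 and Igfbp4 had 2.10 and 2.64 in the knockout and 0.66 and 1.22 in the control. Prrx2 and Crabp1 were named for their gap, and the other 3 were chosen after their values were seen, so the gaps describe the choice. The lateral plate list, which holds Prrx2 and Meis2, had a median of 0.77 in the knockout and 0.43 in the control, and its members Hand1 (1.76 and 1.04) and Msx1 (1.38 and 1.63) were 2-fold in both.

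Pluripotency genes were mostly lower in Flk1+ cells of both genotypes. For some, Sox2 and Nanog among them, they were so by less in the knockout. Most of the readable pluripotency transcription factors had a lower difference in the knockout than in the control. Sox2 had -2.63 in the knockout and was at least 9.29-fold lower in the control, where its Flk1+ value of 2.71 was under the floor. Nanog had -2.16 and -3.20, its Flk1+ values being 5.41 and 3.38. For Dppa5a the differences were -2.15 and -3.54. Ooep went the opposite way, with -2.77 and -2.16, as did Tcfl5 with -1.40 and -0.75 and Mybl2 with -1.34 and -0.87. Fbxo15 was at least 4.98-fold lower in the knockout and at least 2.24-fold in the control, and Mageb16 at least 7.37-fold and 3.44-fold, bounds that give no order. Over the members readable in the knockout comparison, the medians were -1.37 in the knockout and -0.68 in the control for pluripotency transcription factors. For stem cell-restricted genes they were -1.93 and -1.81.

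Of the 38 epithelial genes readable in the knockout comparison, 5 were 2-fold lower in Flk1+ cells of the knockout and 12 in the control. Cdh1 had -0.79 in the knockout and -1.71 in the control, Epcam -0.80 and -1.48, Cldn6 -0.11 and -1.35, and Cldn7 -0.27 and -1.42. The list did not narrow throughout in the knockout. Some members went the opposite way, among them Tjp3 with -1.21 in the knockout and -0.71 in the control, Ocln with -0.82 and -0.47, and Dsg2 with -0.73 and -0.42. Esrp1 was nearly equal, at -1.28 and -1.32. The list medians were closer, at -0.39 and -0.48. S phase genes had a median of -0.44 in the knockout and -0.08 in the control.

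Globin genes had the widest gap of all. In control cells the embryonic globins were higher in the Flk1- fraction, with differences of -4.67 for Hba-x, -4.50 for Hbb-y and -4.35 for Hbb-bh1, and so was Hba-a1, with -4.25. In knockout cells the probe sets used for Hba-x, Hbb-y and Hbb-bh1 were under the floor in both fractions, a readable second probe set of Hbb-y had -0.0056, and Hba-a1 differed by -0.09. The endothelial genes Ecscr and Ctla2a were higher in Flk1+ cells of both genotypes, by 1.99 and 2.48 in the knockout and, in the control, by at least 7.06-fold and by 3.67. Cd93, with Flk1- values under the floor, was at least 1.73-fold higher in the knockout and at least 6.72-fold in the control. Dnlz, a mitochondrial chaperone cofactor, had -0.15 in the knockout and 2.41 in the control, with knockout probe sets from -0.15 to 0.49. Genes 2-fold lower in the knockout sort alone included Stim2, a calcium sensor of the endoplasmic reticulum (-1.46 against 0.23), and Radil, a Rap effector (-1.34 against 0.17). Stim2 had -0.78 with the mean of its probe sets.

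**Figure D5:**
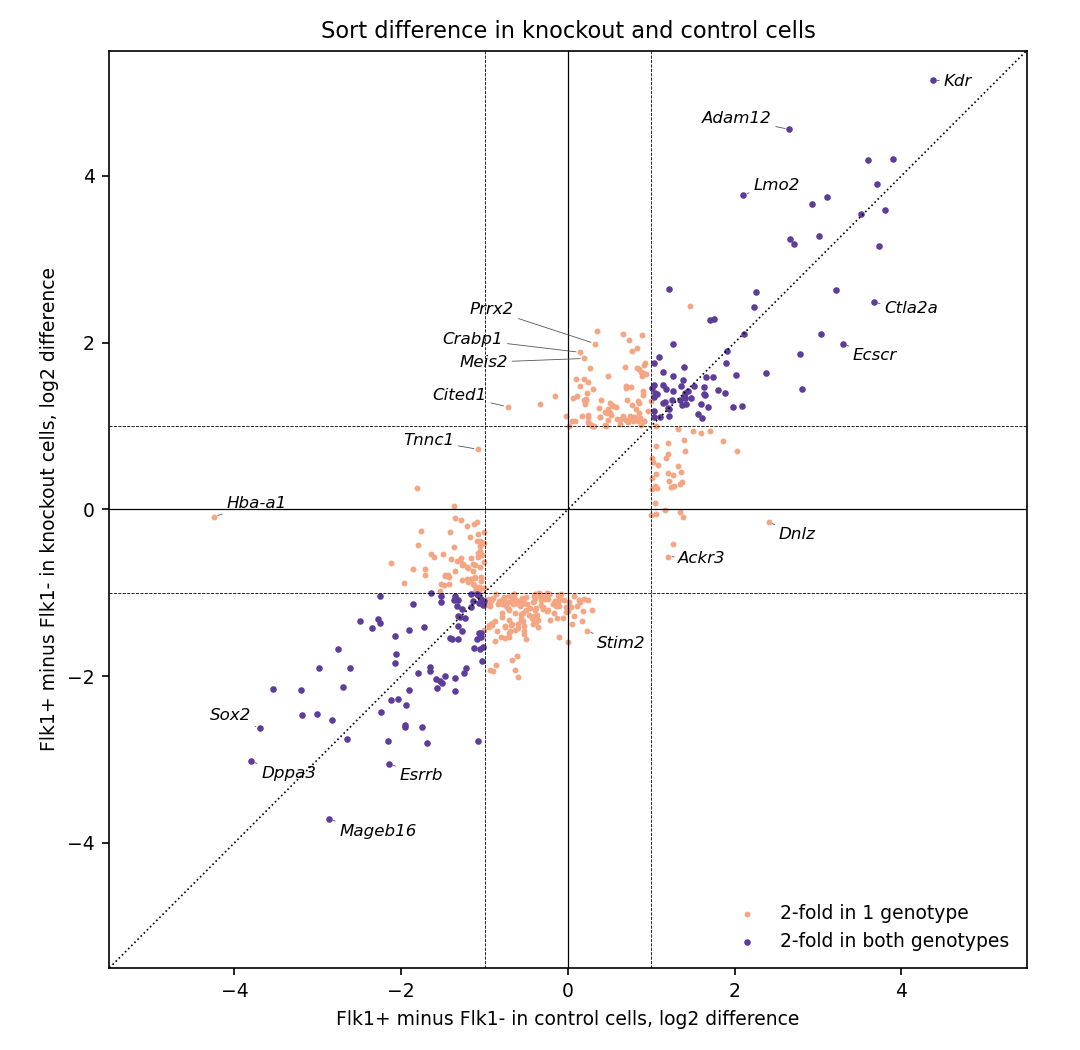
Sort difference (Flk1+ minus Flk1-, log2) in control cells (horizontal) against knockout cells (vertical) for the 517 genes described that were 2-fold apart in either genotype; 158 were in both (purple). The dotted diagonal marks equal differences; Kdr lies near its upper end, Hba-a1 far to the left at a knockout difference of -0.09, and Prrx2, Meis2 and Crabp1 above 1 in the knockout alone.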

How the data were processed

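Log2 expression values of 45141 probe sets on 4 arrays were used as the authors deposited them; RMA and limma appear in the submitters' processing notes, and the sources used here state neither their versions nor their roles. No further normalization was applied here. Such processing makes the value distributions of arrays alike, so a shift of most genes in one direction would not show. Of the probe sets 104 were controls, 28898 were paired with 1 gene in GEO's platform annotation, 551 with several genes (not named) and 15588 with none. Of the 17097 genes 16936 had an identifier in the RefSeq table for GRCm38.p6, 161 did not, and 0 symbols needed an update.

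Each gene took whichever of its probe sets had the highest mean value. The floor was the 40th percentile of these values, and genes above it on at least 1 of the arrays compared were described. A difference counted at a size of 1 or more (2-fold). No p-value was computed, since each group had 1 array. Differences and counts were computed with Python 3.11.15, pandas 2.3.3 and numpy 2.4.6, and the counting rule was tested on simulated data.

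Genes were named by rule: the markers, the 15 furthest apart each way with both values above the floor and the 10 with 1 below it, up to 4 members each way of a list that reached 2-fold (otherwise the 2 largest), the 10 each way furthest from the control difference, and the 5 nearest the 2-fold rule on each side. Gene models without a proper name were counted only (0 higher, 7 lower). Not every gene that met the rule is reported here. Other genes named are list members or genes chosen after their values were seen. Members, markers and all 41 lists were chosen with earlier results of these data known. Promoter windows of 250 bases came from RefSeq.

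The alternatives were 1.5-fold and 3-fold rules, other floors or none, quantile normalization again, centring, cyclic loess (limma 3.58.1 in R 4.3.3, span 0.3, 3 rounds), averaging over probe sets, every probe set 2-fold, leaving out _s_at and _x_at probe sets, and, added after seeing the data, values below the floor set to it.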

Additional observations from a re-analysis of the deposited data

Results flagged for a closer look

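Among the genes that met the naming rule, 4 had sort differences of opposite sign in knockout and control cells, with at least one of them 2-fold and both beyond 0.29, the SD between probe sets of a gene. All 4 met that rule only through the gap between their knockout and control differences, so the opposite signs partly describe the choice. Each rests on 1 array per group, and the difference between the genotypes was not tested. Ackr3, a scavenging receptor for the chemokine CXCL12, had -0.57 in the knockout and 1.199 in the control. Cited1, a transcriptional coregulator, had 1.23 in the knockout and -0.72 in the control. Tnnc1, the slow and cardiac troponin C, had 0.72 in the knockout and -1.08 in the control. Cmc4, a small mitochondrial protein, had -0.4150 in the knockout and 1.26 in the control.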

How the results depend on the processing

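No paired analysis was possible because the labels give 1 array per group and no replicate numbers. Counts followed the size rule: 465 genes higher and 1133 lower at 1.5-fold, and 57 higher and 51 lower at 3-fold. Centring the arrays gave 137 lower genes in place of 232 and 237 higher in place of 173, since it moves every difference up by a constant. Under the other floors, normalizations and probe set rules the counts stayed within 1.5 times, from 125 to 194 higher and from 155 to 235 lower. The excess of lower genes was not kept by quantile normalization again (194 higher, 187 lower) or by cyclic loess (194 and 191). Of 110 genes that met the naming rule and were at 2-fold, 81 were 2-fold under all 6 alternatives for the value and 29 fell under it in at least 1, and none of the 110 changed sign. The median of 5 of the 41 lists (erythroid, FGF, endoderm, trophoblast and reference genes) turned sign under at least 1 setting. Values near or below the floor limit what can be read: 48 of the 173 higher and 56 of the 232 lower genes were under it on 1 array.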

Other observations

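Genes on the X chromosome were often among those lower in knockout Flk1+ cells, a pattern looked for after the values of Mageb16 and Hprt were seen. Of 330 described genes placed on X by RefSeq (GRCm38.p6), 20 were at least 2-fold lower (6.06%) and 6 higher (1.82%). On the autosomes the share lower ran from 1.18% on chromosome 17 to 3.7% on chromosome 10. The X-linked genes lower were led by Mageb16 (-3.72), Trap1a (-2.75), Pdzd4 (-1.94), Slc7a3 (-1.91), Rhox5 (-1.90), Nr0b1 (-1.75) and Rhox9 (-1.54), of which all but Pdzd4 are on the stem cell lists. The Flk1+ values of Mageb16 and Nr0b1 were under the floor. Others were on no list, among them Ofd1, a centriole gene (-1.53), the kinase gene Pim2 (-1.52), Klhl13 (-1.41) and the dystrophin gene Dmd (-1.25). The median difference of the X-linked genes was -0.11, beside -0.08 over all genes, and it was lower on some autosomes, at -0.145 on chromosome 12. In the control sort the X-linked median was -0.02. There 10 of the same 330 genes were 2-fold lower, beside 1.51% of all control genes. Neighbouring genes of a family, such as Rhox5 and Rhox9, are not independent, and no test was made.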
